A study of Mus musculus with 2 samples.

Results

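The genes described here encode the degradative machinery of the lysosome and the proton pump that acidifies it. They were 34 genes taken by symbol from the 32285 genes of the deposited counts, and all 34 were found. They comprised 13 acid hydrolases, 6 membrane, activator and lipid transfer proteins, 8 subunits of the vacuolar H+-ATPase (V-ATPase), 4 ion channels or partners of a chloride exchanger, and 3 transcription factors of the MiT family. The nuclei came from C57BL6 mice with a musculoskeletal traumatic injury (MTI), which combines a tibial fracture with injury of the adjacent muscles. Activated periosteum and hematoma/callus were collected 5 days after the injury, and Sytox-AAD+ nuclei pooled from 3 or 4 mice were sorted into 1 snRNAseq library. There was no replicate library, and no uninjured or fracture-only library of the same day was analysed here. A second library of the series, from day 1 post-fracture, differs in both day and injury and was not compared.

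Lysosomes are acidic compartments in which hydrolases break down material taken up from outside or delivered by autophagy. The V-ATPase pumps protons across the lysosomal membrane, using ATP hydrolysed by its V1 domain to drive transport through its V0 domain. Macrophages use this machinery to clear dead cells and debris. Osteoclasts instead place the pump in the plasma membrane facing bone, so that acid dissolves the mineral in the space below the cell. TFEB, TFEC and MITF are related basic helix-loop-helix factors that bind E-box sequences in the promoters of many lysosomal genes.

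The E-box form CACGTG lay in the promoters of 9 of the 28 genes for which RefSeq provided a promoter of 300 bases (build GRCm38.p6). The letters CACGTG were found on either strand in 32.1% of these 28 promoters, against 8.09% of 27025 gene symbols. The longer palindrome TCACGTGA, the centre of the element described for TFEB targets, was present in 5 of 28, or 17.9%, against 1.12% of all symbols. Those 5 genes are shown because they span 3 of the 5 roles, a V-ATPase subunit, the chloride exchanger and a lysosomal channel, and a pair of hydrolases. Capitals mark the palindrome.
Atp6v1a, chr16:44139356-44139419, minus strand: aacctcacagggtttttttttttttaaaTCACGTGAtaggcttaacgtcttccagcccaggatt
Clcn7, chr17:25133369-25133432, plus strand: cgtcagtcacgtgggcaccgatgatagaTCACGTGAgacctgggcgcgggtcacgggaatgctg
Ctsa, chr2:164833732-164833795, plus strand: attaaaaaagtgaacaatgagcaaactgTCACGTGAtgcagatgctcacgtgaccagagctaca
Gla, chrX:134601198-134601255, minus strand: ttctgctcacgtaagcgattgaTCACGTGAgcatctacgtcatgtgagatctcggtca
Mcoln1, chr8:3500445-3500508, plus strand: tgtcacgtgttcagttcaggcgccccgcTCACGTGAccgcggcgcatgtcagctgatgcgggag

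Ctsa and Gla each held a second copy within their 300 bases, and the one of Ctsa lies in lower case in its sequence above. TCACGTG was found in 8 and GTCACGTG in 7 of the 28 promoters, 28.6% and 25%, against 4.29% and 2.55% of all symbols. These strings overlap one another, so their counts are not separate findings. The palindrome of 10 letters made by 1 more letter on each side, G before and C after, was found in 0 of 28 and in 0.370% of all symbols. The M-box letters TCATGTG were present in 5 of 28, or 17.9%, against 4.31% of all symbols. Among 56 other lysosome and proton pump genes with a promoter, 25% held CACGTG, 8.93% held TCACGTGA and 3.57% held the palindrome of 10 letters.

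A letter string bound by PU.1, the myeloid lineage factor, was also searched. GAGGAAGT was found in 5 of 28 promoters, or 17.9%, against 3.69% of all symbols, and its core GGAAGT in 15 of 28, or 53.6%, against 26.5%. The promoters of the 56 other lysosome and proton pump genes did not share this, with GAGGAAGT in 0 of 56 and GGAAGT in 33.9%. The 5 members with GAGGAAGT were Ctsc, Ctss, Gla, Gusb and Mcoln3. Of these, Gla and Gusb had osteoclast to macrophage intervals that included 1, and Mcoln3 had too few UMIs to be compared. A link between the string and the level was not tested. The promoters of Ctsc and Ctss are shown because these cathepsins had the lowest measured osteoclast to macrophage ratios below. Capitals mark the match, which lies on the opposite strand to the gene in both.
Ctsc, chr7:88277906-88277969, plus strand: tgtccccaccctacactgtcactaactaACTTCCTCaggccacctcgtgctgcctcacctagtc
Ctss, chr3:95526756-95526819, plus strand: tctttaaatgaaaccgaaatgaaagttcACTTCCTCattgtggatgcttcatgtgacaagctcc

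To compare cell types, nuclei were clustered without the lysosome genes and named from marker genes. Of 1127 filtered nuclei, 277 were macrophage-like, 72 monocyte-like, 92 neutrophil-like, 30 osteoclast-like and 176 skeletal, and they are called by these cell types from here on. Levels are UMIs of a gene divided by all UMIs of the population and multiplied by 1000000 (CPM), and the ranges in parentheses are 95% intervals that cover counting error only. The 5 populations held 1233423, 220814, 80040, 205125 and 1026523 UMIs in the order above, so that neutrophils, with a median of 747.5 UMIs per nucleus, gave the least precise values. A gene with 0 UMIs could still be present at up to 37.5 CPM in neutrophils and 14.6 CPM in osteoclasts, but only at up to 2.43 CPM in macrophages. The names were given from these markers, so their levels describe the populations and are no check of the names. Osteoclasts held 1745 CPM of Ctsk and 2247 CPM of Nfatc1, and 6 of 13 macrophage markers, among them C1qa, C1qb and C1qc, had 0 UMIs in them. Csf1r, from the same macrophage list, was higher in osteoclasts, at 595 CPM against 268 in macrophages. It gave 122 of the 150 macrophage marker UMIs of osteoclasts. Neutrophils held 2424 CPM of S100a9, monocytes 593 CPM of Ccr2 and skeletal nuclei 905 CPM of Prrx1. Monocytes also held 4502 CPM of macrophage markers, against 4586 CPM in macrophages. Among these, Arg1 was at 2436 CPM against 667 in macrophages, and Mrc1 at 616 against 1223. Summed macrophage markers thus did not separate monocytes from macrophages, and the part of macrophages in the monocyte values was not tested. Of the barcodes, 33 were also present in the day 1 library.

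Summed over the 34 genes, macrophages and osteoclasts had almost the same level, and both stood far above skeletal nuclei. The sum was 9754 CPM (9581 to 9930.0) in macrophages, 9497 CPM (9079.6 to 9928) in osteoclasts, 7318 CPM (6966 to 7684) in monocytes, 3073 CPM (2701 to 3482) in neutrophils and 1552 CPM (1477 to 1630.0) in skeletal nuclei. The ratio to skeletal nuclei was 6.29 (5.96 to 6.63) for macrophages, 6.12 (5.72 to 6.54) for osteoclasts, 4.72 (4.398 to 5.06) for monocytes and 1.98 (1.72 to 2.27) for neutrophils. Osteoclasts over macrophages gave 0.974 (0.928 to 1.02), an interval that includes 1. With 1 library these ratios have no replicate check and no p-value. Nor can more transcripts of these genes per nucleus be told apart from fewer of all the others, since the sums are shares.

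The level was broadly shared within the populations. In macrophages the middle 50% of nuclei lay between 7419 and 11469 CPM, and in osteoclasts between 7521 and 10945 CPM, while in skeletal nuclei it lay between 883 and 1897 CPM. Each macrophage, monocyte and osteoclast nucleus held at least 1 UMI of the list, whereas 17 of 92 neutrophil and 12 of 176 skeletal nuclei held none. These counts do not rank the populations, because depth differed. Median depth was 747.5 UMIs in neutrophils and 3943 in skeletal nuclei. A skeletal cluster of 68 nuclei, with a median of 1458.5 UMIs, held 11 of the 12 empty skeletal nuclei. With every nucleus thinned to 500 UMIs, the mean was 1.66 UMIs of the list in neutrophils and 0.818 in skeletal nuclei. The osteoclast nucleus with the most UMIs of these genes contributed 7.70% of the osteoclast sum. Endothelial nuclei, at 1287 CPM (1127 to 1463), and myogenic nuclei, at 1888 CPM (1787 to 1993), lay near the skeletal level. Erythroid-like nuclei reached 7084 CPM (6689 to 7496), but also held 2143 CPM of macrophage markers against 4586 CPM in macrophages, and the part of these in that value was not tested.

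Of the 33 genes with at least 10 UMIs in macrophages and skeletal nuclei together, 32 were at least 2-fold higher in macrophages, where 19.9% of all 12002 tested genes were. The remaining one was Lamp2, a main protein of the lysosomal membrane, with a ratio of 1.79 (1.496 to 2.15). Mcoln3, the gene below 10 UMIs, had 7 UMIs in macrophages and none in the other 4 populations. The median ratio of the tested members was 5.36, against 0.971 over all tested genes. Members were chosen with earlier results of these data known, so these figures are not an independent test. For the other pathway genes described below, the median ratio was 2.91. In monocytes 25 of 33 tested members were at least 2-fold above skeletal nuclei, against 17.3% of all genes. In neutrophils it was 13 of 31 against 17.4%, with 9 of the 31 intervals above 1, and in osteoclasts 20 of 32 against 18.6%. In neutrophils 4 members were at least 2-fold lower, where 22.8% of all genes were, and none of their intervals lay below 1. In osteoclasts Ctsc, Lamp1 and Lamp2 were at least 2-fold lower, where 25.3% of all genes were. No member was at least 2-fold lower in macrophages or monocytes, where 26.5% and 28% of all genes were. Skeletal nuclei also held 180.2 CPM of macrophage markers, and the part of macrophage RNA in their lysosomal level was not tested.

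**Figure D1:**
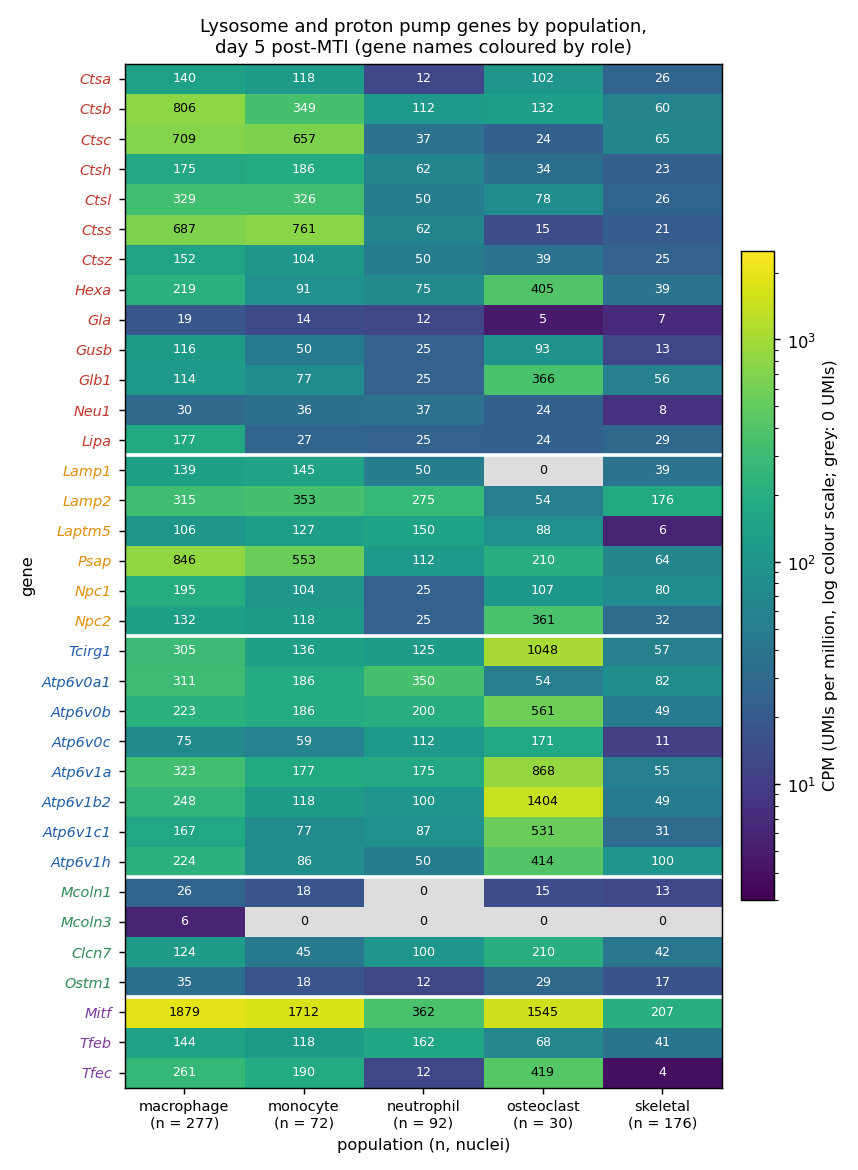
Level of the 34 genes in the 5 populations of the day 5 post-MTI library, as CPM printed in each cell and on a log colour scale, with gene names coloured by role (red, acid hydrolases; orange, membrane, activator and lipid transfer proteins; blue, V-ATPase subunits; green, channels and chloride exchanger; purple, MiT factors). The V-ATPase block is brightest in osteoclasts (Atp6v1b2, 1404 CPM) and the cathepsins in macrophages and monocytes (Ctss, 687 and 761 CPM).

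The near-equal sums of macrophages and osteoclasts hid opposite compositions of the listed genes. Acid hydrolases made up 37.6% of the list's UMIs in macrophages and 14.1% in osteoclasts, whereas V-ATPase subunits made up 19.2% and 53.2%. The V-ATPase members summed to 5051 CPM (4748 to 5368) in osteoclasts and 1875 CPM (1799.6 to 1953) in macrophages, a ratio of 2.69 (2.501 to 2.899). The listed hydrolases summed to 1341 CPM (1187 to 1509) and 3671 CPM (3565 to 3779.6), a ratio of 0.365 (0.322 to 0.413). This contrast of sums depends on which hydrolases were listed. The 27 other hydrolases of the pathway, described below, had a ratio of 1.403 (1.304 to 1.51). Arsb alone gave 2330.3 of their 4466 CPM in osteoclasts. The median ratio of the 25 tested ones was 0.805, with 3 at least 2-fold higher in osteoclasts and 7 lower, against 16.3% and 20.1% of all genes. Ctsk, used as an osteoclast marker, is in neither sum. In all 30 osteoclast nuclei the 8 V-ATPase members together had more UMIs than the 13 listed hydrolases. The same was seen in only 27 of 277 macrophage nuclei, 9.75% (6.52 to 13.9). Nuclei of 1 library are not replicates, so these counts describe the library. Of 33 tested members, 8 were at least 2-fold higher in osteoclasts than in macrophages and 13 at least 2-fold lower, against 16.3% and 20.1% of 9595 tested genes. Of the 8 that were higher, 6 were V-ATPase subunits, and the others were Glb1 and Npc2.

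**Figure D2:**
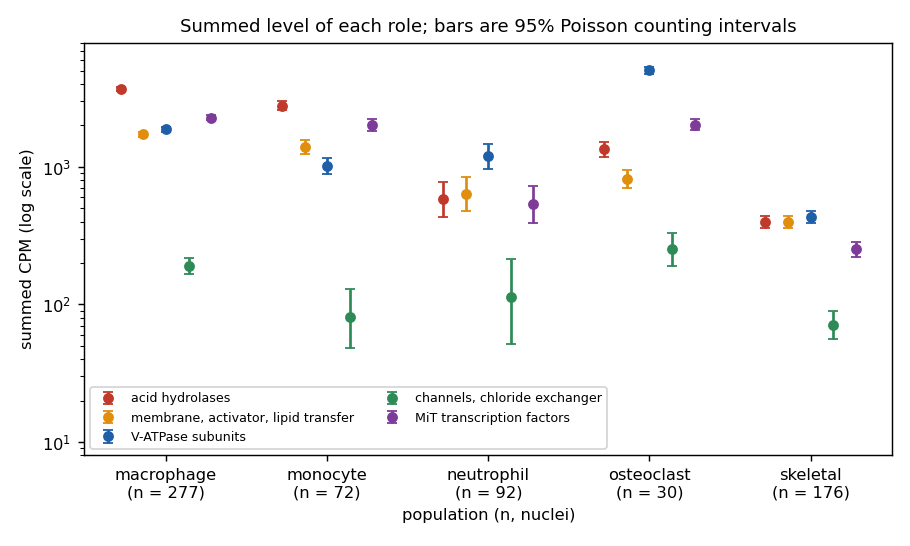
Summed CPM (log scale) of each role in the 5 populations, with 95% Poisson counting intervals. V-ATPase subunits are the highest role in osteoclasts (5051 CPM), neutrophils (1199 CPM) and skeletal nuclei (433 CPM), and acid hydrolases in macrophages (3671 CPM) and monocytes (2794 CPM); in skeletal nuclei the intervals of V-ATPase, hydrolase and membrane genes overlap.

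Among the acid hydrolases, the 6 listed cysteine cathepsins (Ctsb, Ctsc, Ctsh, Ctsl, Ctss and Ctsz) were lower in osteoclasts than in macrophages. Ctsk, the cathepsin that marks osteoclasts, is not among them. Ctss (ENSMUSG00000038642, chr3:95526786-95556403), which encodes cathepsin S, a protease of antigen processing, was at 687 CPM in macrophages, 761 in monocytes, 62.5 in neutrophils, 14.6 in osteoclasts and 21.4 in skeletal nuclei. Macrophages and monocytes were high and the other populations low, with a macrophage to skeletal ratio of 32.04 (21.02 to 51.4) and an osteoclast to macrophage ratio of 0.0213 (0.00438 to 0.0625). After thinning every nucleus to 500 UMIs, a Ctss UMI was seen in 26.0% of macrophage and 26.4% of monocyte nuclei, against 3.33% of osteoclast, 2.17% of neutrophil and 1.14% of skeletal nuclei. Ctsc (ENSMUSG00000030560, chr7:88278085-88310888), encoding the dipeptidyl peptidase that activates granule serine proteases, was at 709 CPM in macrophages, 657 in monocytes, 37.5 in neutrophils, 24.4 in osteoclasts and 65.3 in skeletal nuclei. Osteoclasts had 5 UMIs of Ctsc against 874 in macrophages, a ratio of 0.0344 (0.0111 to 0.0806), and lay below skeletal nuclei, with a ratio of 0.373 (0.117 to 0.916).

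Ctsb, a cathepsin of general protein breakdown, was at 806 CPM in macrophages, 349 in monocytes, 112 in neutrophils, 132 in osteoclasts and 60.4 in skeletal nuclei. It was the 1 cathepsin whose macrophage level stood clear of the next population, at 2.31 (1.83 to 2.95) times that of monocytes. Ctsl was at 329 CPM in macrophages, 326 in monocytes, 49.98 in neutrophils, 78.00 in osteoclasts and 26.3 in skeletal nuclei, with macrophages and monocytes not differing beyond their intervals. Ctsh, an aminopeptidase, was at 175 CPM in macrophages, 186 in monocytes, 62.5 in neutrophils, 34.1 in osteoclasts and 23.4 in skeletal nuclei, and Ctsz, a carboxypeptidase, at 152 CPM in macrophages, 104 in monocytes, 49.98 in neutrophils, 39.00 in osteoclasts and 25.3 in skeletal nuclei. Their osteoclast to macrophage ratios were 0.237 (0.134 to 0.3895) for Ctsl, 0.195 (0.0774 to 0.408) for Ctsh, 0.257 (0.109 to 0.517) for Ctsz and 0.163 (0.107 to 0.239) for Ctsb. The serine carboxypeptidase gene Ctsa, at 140.3 CPM in macrophages, 118 in monocytes, 12.5 in neutrophils, 102 in osteoclasts and 26.3 in skeletal nuclei, was the only cathepsin of the list whose osteoclast to macrophage interval included 1, at 0.7299 (0.441 to 1.15).

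Several glycosidases had another order. Hexa, which encodes the alpha subunit of beta-hexosaminidase, was at 219 CPM in macrophages, 90.6 in monocytes, 74.96 in neutrophils, 405 in osteoclasts and 38.97 in skeletal nuclei, and Glb1, the lysosomal beta-galactosidase, was at 114 CPM in macrophages, 76.99 in monocytes, 24.99 in neutrophils, 366 in osteoclasts and 55.5 in skeletal nuclei. Both were highest in osteoclasts, with ratios to macrophages of 1.85 (1.43 to 2.37) and 3.22 (2.400 to 4.29). The Glb1 span contains a same-strand gene, Tmppe, whose reads could not be separated by position. Gusb, the beta-glucuronidase, was at 116 CPM in macrophages, 49.8 in monocytes, 24.99 in neutrophils, 92.6 in osteoclasts and 12.7 in skeletal nuclei, and its osteoclast to macrophage interval, 0.799 (0.467 to 1.29), included 1. Neu1, a sialidase, held 61 UMIs in all 5 populations, at 29.998 CPM in macrophages, 36.2 in monocytes, 37.5 in neutrophils, 24.4 in osteoclasts and 7.79 in skeletal nuclei. Gla, an alpha-galactosidase, held 35, at 18.6 CPM in macrophages, 13.6 in monocytes, 12.5 in neutrophils, 4.88 in osteoclasts and 6.82 in skeletal nuclei. Macrophages were above skeletal nuclei in both, with ratios of 3.85 (1.76 to 9.57) and 2.73 (1.14 to 7.55), but their osteoclast to macrophage intervals, 0.813 (0.249 to 2.07) and 0.261 (0.00635 to 1.61), included 1. Lipa, the acid lipase that frees cholesterol from its esters, was the hydrolase of the list whose macrophage level stood farthest above the next population. It was at 177 CPM in macrophages, 27.2 in monocytes, 24.99 in neutrophils, 24.4 in osteoclasts and 29.2 in skeletal nuclei, and the ratio of macrophages to skeletal nuclei, the next population, was 6.05 (4.12 to 9.18).

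Of the 6 membrane, activator and lipid transfer genes, Psap, Lamp1, Lamp2 and Npc1 were lower in osteoclasts than in macrophages and Npc2 was higher. Psap (ENSMUSG00000004207, chr10:60277627-60302597), the precursor of the saposins that help hydrolases reach their lipids, was at 846 CPM in macrophages, 553 in monocytes, 112 in neutrophils, 209.6 in osteoclasts and 64.3 in skeletal nuclei. Macrophages and monocytes were again high, and the osteoclast to macrophage ratio was 0.248 (0.178 to 0.336). Lamp1, a major membrane glycoprotein of lysosomes, had 171 UMIs in macrophages and 0 of 205125 UMIs in osteoclasts, so that, with 3 counts in place of 0, osteoclasts were at most at 0.105 times the macrophage level. Its levels were 139 CPM in macrophages, 145 in monocytes, 49.98 in neutrophils, 0 in osteoclasts and 38.97 in skeletal nuclei. Lamp2 was at 315 CPM in macrophages, 353 in monocytes, 275 in neutrophils, 53.6 in osteoclasts and 176 in skeletal nuclei, with osteoclasts lowest of the 5 and a ratio to skeletal nuclei of 0.304 (0.149 to 0.557). Laptm5, a membrane protein of hematopoietic cells, was at 106 CPM in macrophages, 127 in monocytes, 149.9 in neutrophils, 87.8 in osteoclasts and 5.84 in skeletal nuclei. It separated all 4 hematopoietic populations from skeletal nuclei, but its intervals in those 4 overlapped.

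Npc1 and Npc2 act in sequence to move cholesterol out of the lysosome. Npc2 was at 132 CPM in macrophages, 118 in monocytes, 24.99 in neutrophils, 361 in osteoclasts and 32.1 in skeletal nuclei, with an osteoclast to macrophage ratio of 2.73 (2.05 to 3.61). Npc1 was at 195 CPM in macrophages, 104 in monocytes, 24.99 in neutrophils, 107 in osteoclasts and 79.9 in skeletal nuclei, with a ratio of 0.551 (0.339 to 0.854).

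V-ATPase subunits stood highest in osteoclasts. Atp6v1b2 (ENSMUSG00000006273, chr8:69088646-69113711), a B subunit of the catalytic V1 domain, was at 248 CPM in macrophages, 118 in monocytes, 99.95 in neutrophils, 1404 in osteoclasts and 48.7 in skeletal nuclei. Its osteoclast to macrophage ratio, 5.66 (4.801 to 6.67), was the highest of the 33 tested members. An Atp6v1b2 UMI was seen in 50% of osteoclast nuclei thinned to 500 UMIs, against 11.2% of macrophage and 0.568% of skeletal nuclei. Tcirg1 (ENSMUSG00000001750, chr19:3896050-3907133), the a3 subunit of the V0 domain that osteoclasts need to resorb bone, was at 305 CPM in macrophages, 136 in monocytes, 125 in neutrophils, 1048 in osteoclasts and 56.5 in skeletal nuclei, with a ratio of 3.44 (2.89 to 4.08). Per kilobase of gene span, Tcirg1 stood at 94.6 CPM per kb in osteoclasts, behind Atp6v0b at 186.4 CPM per kb, and these were the highest of the 34 genes there.

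Atp6v1a, the catalytic A subunit, was at 323 CPM in macrophages, 177 in monocytes, 175 in neutrophils, 868 in osteoclasts and 54.6 in skeletal nuclei, and Atp6v1c1, a C subunit of the stalk, at 167 CPM in macrophages, 76.99 in monocytes, 87.5 in neutrophils, 531 in osteoclasts and 31.2 in skeletal nuclei. Atp6v0b, which encodes a proteolipid of the V0 ring, was at 223 CPM in macrophages, 186 in monocytes, 199.9 in neutrophils, 561 in osteoclasts and 48.7 in skeletal nuclei. Another proteolipid gene, Atp6v0c, was at 75.4 CPM in macrophages, 58.9 in monocytes, 112 in neutrophils, 171 in osteoclasts and 10.7 in skeletal nuclei. Osteoclasts were highest for each of these 4 genes, but for Atp6v0c the ratio to neutrophils, the next population, was 1.52 (0.715 to 3.59) and its interval included 1. Atp6v1h, the regulatory H subunit, was at 224 CPM in macrophages, 86.05 in monocytes, 49.98 in neutrophils, 414 in osteoclasts and 100.3 in skeletal nuclei. Osteoclast to macrophage ratios were 3.18 (2.499 to 4.03) for Atp6v1c1, 2.69 (2.24 to 3.22) for Atp6v1a, 2.51 (2.005 to 3.14) for Atp6v0b, 2.26 (1.49 to 3.37) for Atp6v0c and 1.85 (1.43 to 2.37) for Atp6v1h. Thus 7 of 8 subunits had an interval above 1.

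Atp6v0a1 (ENSMUSG00000019302, chr11:101009452-101063719), the a1 form of the same V0 subunit as Tcirg1, ran against the rest. It was at 311 CPM in macrophages, 186 in monocytes, 349.8 in neutrophils, 53.6 in osteoclasts and 81.8 in skeletal nuclei. Osteoclasts were lowest, with 11 UMIs against 383 in macrophages and a ratio of 0.173 (0.0855 to 0.313). In neutrophils its level was that of macrophages, with a ratio of 1.13 (0.739 to 1.65), while the 13 listed hydrolases summed to 0.1600 (0.117 to 0.213) times the macrophage level. The 27 other hydrolases of the pathway did not share that low level, with a ratio of 0.663 (0.565 to 0.774). V-ATPase members made up 39.02% of the list's UMIs in neutrophils. Their sum there was 0.6396 (0.516 to 0.785) times that of macrophages, and the intervals of Atp6v0b, 0.897 (0.505 to 1.48), and Atp6v0c, 1.49 (0.661 to 2.95), included 1. Against macrophages, 0 of 33 members were at least 2-fold higher in neutrophils and 21 lower, where 16.4% and 20% of all genes were. Neutrophils held 45 UMIs of macrophage markers, 562 CPM, and the part of these in their lysosomal level was not tested.

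**Figure D3:**
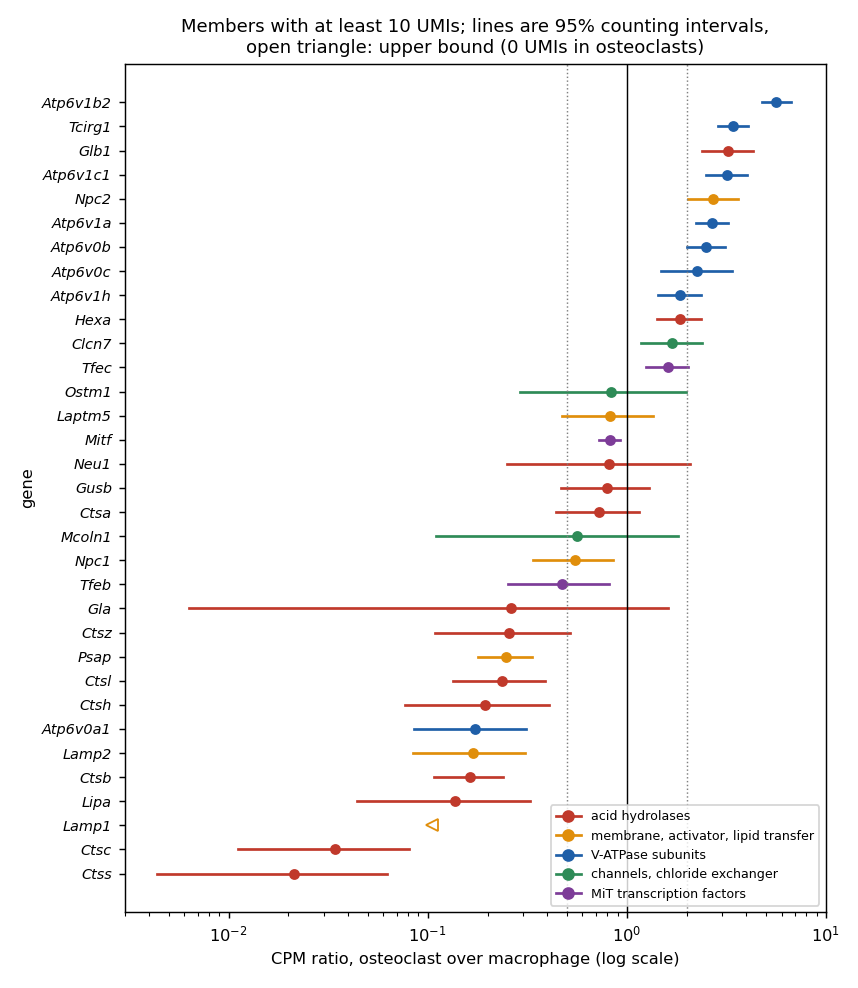
CPM ratio of osteoclasts over macrophages (log scale) for the 33 members with at least 10 UMIs, with 95% counting intervals, coloured by role; dotted lines mark 2-fold and the open triangle is the upper bound for Lamp1. Of the 8 V-ATPase subunits, 7 lie right of 1 and Atp6v0a1 lies at 0.173, while Ctss (0.0213) and Ctsc (0.0344) are at the far left.

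The channel and chloride exchanger genes had the lowest sum of the 5 roles in each population. Clcn7, the chloride-proton exchanger whose loss causes osteopetrosis, was at 124 CPM in macrophages, 45.3 in monocytes, 99.95 in neutrophils, 209.6 in osteoclasts and 41.9 in skeletal nuclei, with an osteoclast to macrophage ratio of 1.69 (1.18 to 2.38). Its partner Ostm1, which stabilises the exchanger, was at 34.9 CPM in macrophages, 18.1 in monocytes, 12.5 in neutrophils, 29.3 in osteoclasts and 16.6 in skeletal nuclei, and its interval, 0.839 (0.292 to 1.98), included 1. Mcoln1, the mucolipin calcium channel, was at 25.9 CPM in macrophages, 18.1 in monocytes, 0 in neutrophils, 14.6 in osteoclasts and 12.7 in skeletal nuclei, with a macrophage to skeletal ratio of 2.05 (1.05 to 4.25). It had 3 UMIs in osteoclasts and none in neutrophils.

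The 3 MiT factors differed in where they were seen. Mitf was at 1879 CPM in macrophages, 1712 in monocytes, 362 in neutrophils, 1545 in osteoclasts and 207 in skeletal nuclei, and Tfec at 261 CPM in macrophages, 190.2 in monocytes, 12.5 in neutrophils, 419 in osteoclasts and 3.897 in skeletal nuclei. Mitf had 3254 UMIs in the 5 populations, the most of the 34 genes, and also the longest span, 214.3 kb. Reads in introns were counted, and per kilobase Mitf was at 8.77 CPM per kb in macrophages, rank 12 of the list. Tfec was near 0 in skeletal nuclei, with 4 UMIs and a macrophage to skeletal ratio of 67.00 (25.9 to 247). In neutrophils 1 UMI of Tfec was seen, where even 0 UMIs would allow up to 37.5 CPM. Tfec was highest in osteoclasts, at 1.61 (1.25 to 2.04) times the macrophage level, while Mitf was at 0.822 (0.729 to 0.925). Tfeb was at 144 CPM in macrophages, 118 in monocytes, 162 in neutrophils, 68.3 in osteoclasts and 40.9 in skeletal nuclei. Here macrophages, monocytes and neutrophils did not differ beyond their intervals, and osteoclasts were below macrophages, with a ratio to macrophages of 0.473 (0.253 to 0.815).

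Within the macrophages, 1 of 4 clusters stood above the rest. It held 35 nuclei, was led by Fabp4, Mmp12 and Mmp13, and reached 12974 CPM (12481 to 13481) for the list. The other 3 clusters were at 9239 CPM (8959 to 9526) in the 103 nuclei led by Gclm and Ptgr1, 9614 CPM (9280.0 to 9956) in the 76 led by Vcam1 and Dnase1l3, and 8322 CPM (7976 to 8679.6) in the 63 led by Cd163 and Ccl8. The ratio of the Mmp12 cluster to the other macrophages was 1.42 (1.36 to 1.48). Macrophage markers were not higher in it, at 3673 CPM against 4765 CPM in the others. Its median depth was 5232 UMIs per nucleus, against 3835 in the others.

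Psap, Ctsl, Atp6v1b2 and Gla were at least 2-fold higher there, 4 of 33 tested members against 7.9% of 9008 genes. The number higher was near that background. Of the 33 intervals, 15 lay above 1, but the share of all genes with such an interval was not computed. That number is therefore not read as a result about the members. Psap was at 1856 CPM in the Mmp12 cluster and between 375 and 767 CPM in the others, a ratio of 2.86 (2.52 to 3.25). Ctsl was at 829 CPM against 400.0 in the Gclm, 153 in the Cd163 and 64.4 in the Vcam1 cluster. No pair of these 4 intervals overlapped. Atp6v1b2 was at 486 CPM and between 195 and 209 CPM in the others, a ratio of 2.41 (1.88 to 3.08). The interval of Gla, 2.24 (0.7796 to 5.76), included 1.

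Ctsc and Tfec went the other way, the only 2 members at least 2-fold lower in the Mmp12 cluster, where 13% of all genes were. Ctsc was at 144 CPM there and at 737 to 963 CPM in the others, a ratio of 0.176 (0.117 to 0.254). Tfec was at 79.4 CPM against 231 to 374 CPM, a ratio of 0.268 (0.151 to 0.442). In the Vcam1 cluster, Ctsc, Ctsh and Tfec were 1.56 (1.35 to 1.795), 1.88 (1.41 to 2.48) and 1.698 (1.34 to 2.14) times the level of the other macrophages, and Ctsl was 0.152 (0.0929 to 0.235) times. In the Cd163 cluster, Psap was at 0.386 (0.311 to 0.476) times. Against the other macrophages, 0 members were at least 2-fold higher and 2 lower in the Vcam1 cluster, where 8.61% and 11% of all genes were. In the Cd163 cluster 0 were higher and 4 lower (Ctsl, Gla, Glb1 and Psap), where 6.44% and 13.3% were. In the Gclm cluster 0 were higher and 1 lower (Ctsh), where 7.03% and 10.3% were. The members were left out of the clustering, but other genes that vary with them were not.

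**Figure D4:**
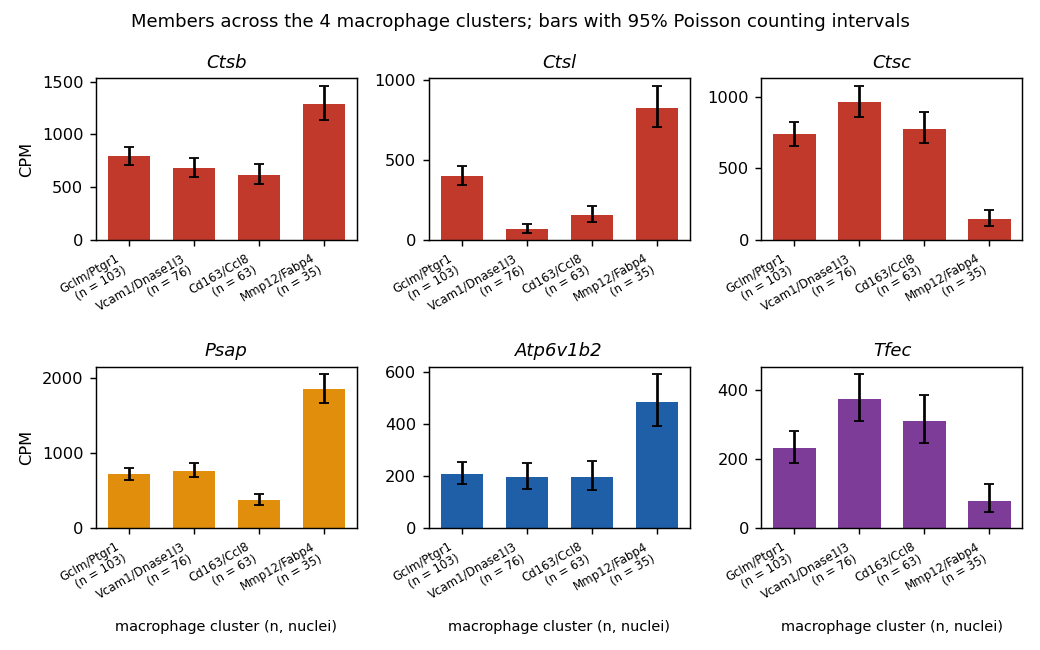
CPM of 6 members in the 4 macrophage clusters, named by leading genes, with 95% Poisson counting intervals. Psap (1856 CPM), Ctsl (829 CPM) and Atp6v1b2 (486 CPM) are highest in the Mmp12/Fabp4 cluster, in which Ctsc (144 CPM) and Tfec (79.4 CPM) are lowest.

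Monocytes were below macrophages in the sum of each role, least so for the MiT factors, at 0.884 (0.798 to 0.977) times. Summed macrophage markers did not separate these populations and Arg1 was higher in monocytes, so the comparison is limited by the names. Hydrolases were at 0.761 (0.699 to 0.828) times the macrophage level and V-ATPase members at 0.546 (0.474 to 0.626) times. Ctss, Ctsc, Ctsl, Ctsh, Lamp1 and Lamp2 did not differ from macrophages beyond their intervals. Among those lower were Lipa, with a monocyte to macrophage ratio of 0.154 (0.0558 to 0.3401), Hexa, 0.414 (0.249 to 0.652), Ctsb, 0.433 (0.339 to 0.546), and Tcirg1, 0.446 (0.297 to 0.647). Of 33 tested members, 9 were at least 2-fold lower in monocytes, against 16.4% of all genes, and 0 were higher, against 8.06%.

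The skeletal clusters had sums of the listed genes whose ratio could not be told from 1. A cluster of 108 nuclei led by Ibsp and Sp7 was at 1541 CPM (1462 to 1624) and one of 68 nuclei led by Pi15 and Ntf3 at 1636 CPM (1408 to 1890.5), a ratio of 0.942 (0.807 to 1.105). Their median depths were 7827 and 1458.5 UMIs per nucleus. Macrophage markers were at 156 and 373 CPM, and the part of macrophage RNA in these sums was not tested. Among the lists of other pathway genes, only the 27 other hydrolases had a ratio interval without 1, at 0.422 (0.365 to 0.491). Ctsc was at least 2-fold higher in the Ibsp cluster, 1 of 29 tested members against 13.2% of all genes. Gusb, Npc2 and Tcirg1 were at least 2-fold lower, 3 of 29 against 9.4%. The number lower was near that background, and 1 of the 29 intervals lay below 1. In skeletal nuclei Atp6v0b, at 16.2 CPM per kb, was the highest member per kilobase of span, ahead of Tcirg1 at 5.10 CPM per kb. Atp6v0b ranked highest by this measure in each population, and its span of 3.008 kb was the shortest of the list.

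The other genes of the pathway were taken from a list of 72. In macrophages over skeletal nuclei, 46 of 63 tested ones were at least 2-fold higher and 2 at least 2-fold lower, against 19.9% and 26.5% of all genes. By list, 19 of 25 other hydrolases, 9 of 15 membrane and activator proteins, 9 of 12 V-ATPase subunits and 8 of 10 channel and nutrient sensing genes were higher, as was the MiT factor Tfe3, at 2.74 (1.72 to 4.52). Lgmn, the asparaginyl endopeptidase that matures cathepsins, was at 913 CPM in macrophages, 457 in monocytes, 49.98 in neutrophils, 34.1 in osteoclasts and 70.1 in skeletal nuclei.

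Between osteoclasts and macrophages, 11 of 61 tested other genes were at least 2-fold higher in osteoclasts and 19 at least 2-fold lower, against 16.3% and 20.1% of all genes. The number higher was near that background. By list, 5 of 11 V-ATPase subunits were higher and 1 lower. Atp6v0d2 (ENSMUSG00000028238, chr4:19876841-19922605), the d2 subunit, which is known for its part in osteoclast fusion, was at 98.1 CPM in macrophages, 4.53 in monocytes, 12.5 in neutrophils, 2433 in osteoclasts and 10.7 in skeletal nuclei. It had a UMI in 30 of 30 osteoclast nuclei and 36 of 277 macrophage nuclei, and a ratio of 24.8 (20.3 to 30.5). In the macrophages 76 of its 121 UMIs fell in the Mmp12 cluster, where it reached 377 CPM. Atp6v0d1, the ubiquitous form of the same subunit, was at 199 CPM in macrophages, 163 in monocytes, 199.9 in neutrophils, 73.1 in osteoclasts and 68.2 in skeletal nuclei, and its osteoclast to macrophage ratio was 0.368 (0.203 to 0.619). Atp6v1d and Atp6v1e1 had ratios of 5.21 (3.798 to 7.14) and 3.62 (2.71 to 4.81).

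Among the hydrolases outside the list, Arsb, the arylsulfatase that removes sulfate from dermatan and chondroitin chains, had the highest osteoclast to macrophage ratio. It was at 41.3 CPM in macrophages, 22.6 in monocytes, 74.96 in neutrophils, 2330.3 in osteoclasts and 65.3 in skeletal nuclei, a ratio of 56.4 (42.2 to 76.8), and 27 of 30 osteoclast nuclei held at least 1 UMI of it. Lgmn had 7 UMIs in osteoclasts and a ratio of 0.0374 (0.01499 to 0.0773). With Arsb among them, the other hydrolases summed to 4466 CPM in osteoclasts and 3183 CPM in macrophages, a ratio of 1.403 (1.304 to 1.51). Arsb alone gave 2330.3 CPM of the osteoclast sum, which without it would lie below the macrophage sum. The median ratio of the 25 tested ones was 0.805. Of these, 3 were at least 2-fold higher in osteoclasts and 7 lower, against 16.3% and 20.1% of all genes. The cathepsin gene Ctsk and the acid phosphatase gene Acp5 served as osteoclast markers and are left out of these sums, as is Cd68, a macrophage marker. Of the other lists, 7 of 15 membrane and activator proteins were lower in osteoclasts and 3 higher, and Scarb2, a carrier of beta-glucocerebrosidase, had 3 UMIs and a ratio of 0.0871 (0.0178 to 0.258). Slc38a9, an amino acid sensor of the lysosome, was at a ratio of 0.761 (0.502 to 1.12), and of 9 tested channel and nutrient sensing genes 0 were higher and 4 lower. The remaining genes with the most UMIs of their lists had osteoclast to macrophage ratios of 1.13 (0.737 to 1.67) for Igf2r, a receptor that sorts hydrolases to lysosomes, 0.501 (0.281 to 0.835) for the sialic acid exporter gene Slc17a5 and 0.472 (0.198 to 0.965) for Laptm4a. The ratios were 0.505 (0.246 to 0.933) for the cation channel gene Tpcn1, 1.04 (0.584 to 1.76) for Tpcn2, which overlaps 1810010D01Rik on the same strand, 0.635 (0.346 to 1.08) for the nutrient sensing GTPase gene Rragc and 0.609 (0.254 to 1.26) for Tfe3.

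**Figure D5:**
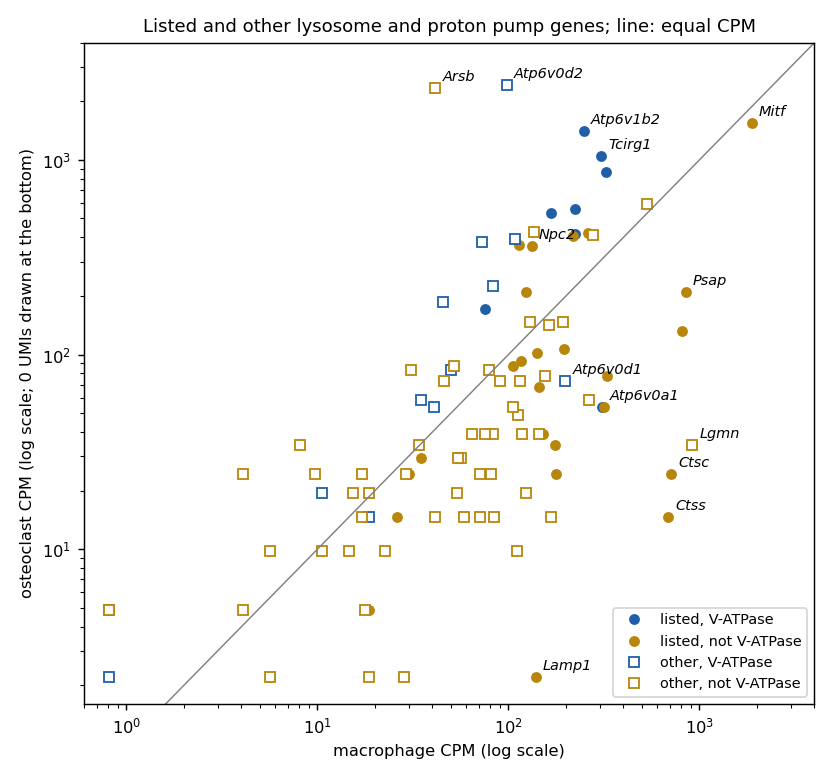
Osteoclast CPM against macrophage CPM (both log scales) for the listed genes (filled) and the other pathway genes (open) with UMIs in either population, 101 genes in all, V-ATPase genes in blue; genes with 0 UMIs in osteoclasts are drawn at the bottom. Atp6v0d2 (98.1 and 2433 CPM) and Arsb (41.3 and 2330.3 CPM) are farthest above the line of equal CPM, and Lgmn, Ctss and Ctsc far below it.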

How the data were processed

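Raw UMI counts per gene and barcode, deposited by the authors, were used as given. Per the file headers they were made with Cell Ranger 7.0.1, and per the submitters' processing notes on mm10, reads in introns being counted too. The identifiers are all of mouse, although the labels name a human reference. A barcode was kept as a nucleus when it had 200 to 5000 genes and when mitochondrial UMIs made up less than 5% and ribosomal protein UMIs less than 2% of its total (1127 of 1446). They were clustered with Seurat 5.3.0 (R 4.3.3) on 2000 variable genes without the 34 members and 72 other pathway genes, using 30 components and resolution 1, then 20 and 1.5 for immune and 15 and 0.5 for skeletal nuclei. A cluster was named where at least 3 markers with at least 3 UMIs were at least 1.5-fold over the other nuclei, pooled over at least 1.5-fold, with a marker among the 100 leading genes. Immune clusters without a name among immune nuclei were then compared with the non-immune nuclei. Clusters that failed these rules, or whose 10 leading genes held more markers of another class, stayed unnamed (261 nuclei in all). Scrublet called 4 of 1143 nuclei doublets, which were kept, and their removal was an alternative. UMIs were pooled per population. Levels have exact Poisson intervals, ratios exact conditional binomial intervals and shares Clopper-Pearson intervals, all at 95% and for counting error only. With 1 library no test was made, and called means at least 2-fold among genes with at least 10 UMIs in both populations together. A count of 0 was set to 3 counts for bounds. On simulated counts the fold rule called 93% of 200 changed genes among 12002 for macrophages over skeletal nuclei and 78% among 9595 for osteoclasts over macrophages, and 6.65% and 12.6% of the unchanged genes. The changed genes were set 3-fold or 4-fold higher or lower, and pooled counts were drawn with counting error only. These shares therefore do not cover smaller changes or variation between nuclei. Members with at least 30 UMIs in the 5 populations are given in full, and up to 4 other pathway genes per list, those with the most UMIs, except 2 that are not reported here. Atp6v0d2, Lgmn and Arsb are among these. Members and lists were chosen with earlier results of these data known. Gene spans are from GENCODE M21 (GRCm38), whose release may differ from the authors'. RefSeq promoters cover 250 bases before to 50 after the gene start. They were matched by symbol for 28 of 34 members, all but Npc1, Atp6v1h, Ctsh, Atp6v1b2, Atp6v1c1 and Ctsb.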

Additional observations from a re-analysis of the deposited data

Results flagged for a closer look

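UMIs of the 34 genes were also seen in barcodes and nuclei that entered no comparison, at levels above the limit that a count of 0 allows. In the 319 barcodes of the day 5 post-MTI library outside the filters they summed to 3116 CPM (3029 to 3205), between the skeletal and the monocyte level. In the day 1 post-fracture library they summed to 1631 CPM (1559.7 to 1705) in 2405 nuclei within the filters of the study (under 0.5% mitochondrial and 2.5% ribosomal UMIs). In its 43464 barcodes with fewer than 200 genes they summed to 2070 CPM (2036 to 2104). The libraries differ in day, injury and depth together, so these values were not compared.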

How the results depend on the processing

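Each ratio to skeletal nuclei stayed above 1, the V-ATPase ratio above 1 and the hydrolase ratio below 1 under each alternative run, whereas the osteoclast to macrophage sum lay on either side of 1. Both counts of members (32 in macrophages over skeletal nuclei, 8 in osteoclasts over macrophages) stayed within 1.5 times, at 26 to 32 and 8 to 9. Some sums left their counting interval, for causes not tested. For macrophages over skeletal nuclei (6.29) the value was 5.84 with no upper limit of genes, 5.785 after thinning to 500 UMIs and 5.85 without Mitf. For monocytes (4.72) it was 5.37 with a mitochondrial limit of 0.5%, 4.295 after thinning and 4.17 without Mitf. The nuclei named monocyte changed in number, from 72 to 35 with that mitochondrial limit and to 121 with at least 500 genes per nucleus. Named by their own marker score, they were 38. For neutrophils (1.98) it was 1.665 with at least 500 genes per nucleus and 2.77 with each nucleus named by its own marker score, and for osteoclasts (6.12) 5.70 with no upper limit. Osteoclasts over macrophages (0.974) gave 1.03 as a mean of nuclei and 1.09 after thinning. Further alternatives were added after the data had been seen. Among these, osteoclasts over macrophages gave 1.04 without the Mmp12 cluster. Also among these, the V-ATPase ratio (2.69) was 3.07 as a mean of nuclei, 3.39 after thinning and 2.98 without the Mmp12 cluster. The hydrolase ratio (0.365) was 0.292 after thinning, again an added alternative. Leaving out the osteoclast nucleus with the most UMIs of the list or the shallower skeletal cluster, both added too, kept the sums within their intervals. Depth limits the neutrophils, with 246 UMIs of the list, and Mcoln3, Gla and Neu1. No paired analysis was possible because the libraries were not compared and each group has 1 library.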
